A study of Mus musculus with 6 samples.

Results

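The tricarboxylic acid (TCA) cycle enzyme genes followed here were *Cs*, *Idh3a*, *Idh3b*, *Idh3g*, *Idh2*, *Ogdh*, *Suclg1*, *Fh1* and *Mdh2*. Their RNA was compared between CD27SP NK cells of Ncr1cre Myc fl/fl mice, here called *Myc*-deficient, and of Ncr1cre Myc wt/wt controls. These 9 genes were taken by name from the 25690 gene symbols in the tables, and all 9 were among the 15474 genes with enough counts for a test. None of the 9 passed the threshold set for a changed gene. The estimate was lower in the *Myc*-deficient libraries for 8 of the 9 and higher for *Ogdh*, with a median log2 fold change of −0.24 against 0.014 over all tested genes. *Fh1* and *Idh3a* lay farthest from 0, at 70.0% and 73.1% of the control mean.

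RNA was sequenced from CD27SP NK cells, sorted from the BM as NK1.1+CD27+CD11b- cells, with lineage-positive cells such as CD3+ T cells left out. The *Myc*-deficient animals were Ncr1cre Myc fl/fl and their controls Ncr1cre Myc wt/wt. Each genotype gave 3 libraries, numbered 1, 2 and 4. Both genotypes carry Ncr1cre, backcrossed to C57BL/6, and differ in the floxed *Myc* alleles. Cre is made from the *Ncr1* locus, so *Myc* can be lost from a cell only once that cell has begun to express NKp46. The methods describe the study's mice as matched for sex and age, with an age range for the study as a whole. The labels do not give the age of these animals or whether each library came from 1 mouse, so the p-values measure the spread between these libraries, which may in part be technical. In such bulk libraries, less RNA of a gene per cell and fewer cells that hold it cannot be told apart.

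The TCA cycle runs in the mitochondrial matrix and oxidises the acetyl group of acetyl-CoA to carbon dioxide, handing the electrons to the respiratory chain as NADH and as reduced flavin. Its intermediates also leave the cycle as building material, citrate for lipids and oxaloacetate and 2-oxoglutarate for amino acids, and are refilled by other reactions. NK cells raise glycolysis and respiration when stimulated by cytokines, and activated NK cells are known to export citrate from mitochondria in exchange for malate. Myc and its partner Max bind the DNA sequence CACGTG, the E-box.

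The start regions of 2 members are shown, since *Fh1* had the lowest estimate among the 9 genes and *Ogdh* the only one above 0. The bases are those of RefSeq on the GRCm38.p6 build, on the strand of each gene, and neither stretch touches an annotated exon. The first is chr1:175625636-175625885 on the minus strand and the second chr11:6291347-6291596 on the plus strand, each the 250 bases before an annotated start.
Fh1: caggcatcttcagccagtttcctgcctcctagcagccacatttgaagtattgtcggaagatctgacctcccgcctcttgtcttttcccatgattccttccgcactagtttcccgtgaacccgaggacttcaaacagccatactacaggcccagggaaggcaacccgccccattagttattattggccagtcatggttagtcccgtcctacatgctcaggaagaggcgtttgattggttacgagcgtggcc
Ogdh: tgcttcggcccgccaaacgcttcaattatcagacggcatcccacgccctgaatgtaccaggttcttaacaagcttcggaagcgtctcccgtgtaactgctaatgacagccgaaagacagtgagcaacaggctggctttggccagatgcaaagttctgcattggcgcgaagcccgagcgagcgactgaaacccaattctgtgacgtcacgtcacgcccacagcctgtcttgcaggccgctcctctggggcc
Neither stretch holds CACGTG. RefSeq start regions of 300 bases, from 250 before to 50 after a start, were used for 8 of the 9 members, all but *Idh3a*.

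Among the 13 start regions of the 8 members, the letters CACGTG, which read the same on both strands, stood in 3, all of *Ogdh*. Over the whole table, 7.15% of 32851 start regions and 8.09% of 27025 genes held them. The copies in *Ogdh* lie at 2 places, within annotated *Ogdh* exons, at chr11:6292048-6292077 and chr11:6292405-6292434 on the plus strand. They are shown with 12 bases on either side and the motif in capitals.
Ogdh first: gtcgcggcgtgtCACGTGgaccggtcgctc
Ogdh second: ggcaagaatcctCACGTGgataccatgtaa
The related letters CACGCG, searched on both strands, stood in *Idh3g* and *Suclg1*, 2 of the 8 genes, against 10.5% of all genes. A match to 6 letters describes the sequence and does not show that a factor bound there.

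The libraries held from 8101219 estimated counts in control replicate 1 to 64962491 in control replicate 4, and the other 4 held between 54550907 and 60200120. Even the shallow library gave each member between 593 and 3343 counts. *Myc* itself, the check of the genotypes, was lower in every *Myc*-deficient library, at −1.44 on the log2 scale (SE, the standard error, 0.15, edgeR adjusted p = 0.00189). Levels between libraries are given as normalized counts (CPM, counts per Mio) scaled by TMM, which suits a comparison of one gene across libraries. On this scale the mean of *Myc* went from 183 ± 18.1 to 67.5 ± 7.94 CPM (SD, n = 3), so part of its RNA remained. Fold changes are those of edgeR for *Myc*-deficient over control cells on the log2 scale, and P-values were adjusted over all tested genes. To pass, a gene needed an adjusted p below 0.01 together with a log2 fold change of 0.5 or more in size, which 0.872% of the tested genes did downwards and 1.28% upwards.

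At the first step, *Cs* encodes citrate synthase, which joins acetyl-CoA to oxaloacetate (ENSMUSG00000005683.8, chromosome 10 of GRCm38 from 128337734 to 128362479). Its CPM values were 275.2, 275.8 and 256.2 in control replicates 1, 2 and 4 and 225.7, 258.5 and 269.5 in their *Myc*-deficient counterparts. The genotypes overlapped. The means were 269 ± 11.1 and 251 ± 22.8 CPM (SD, n = 3), and the log2 fold change was −0.10 (SE 0.14, edgeR adjusted p = 0.734). The 95% interval, −0.41 to 0.20, leaves out a change of 0.5 in either direction.

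*Idh3a*, *Idh3b* and *Idh3g* encode the NAD-dependent isocitrate dehydrogenase of the cycle, with the first giving the catalytic subunit and the other two the regulatory ones. *Idh3a* (ENSMUSG00000032279.11, chromosome 9 from 54586334 to 54604661) had 229.8, 188.6 and 181.7 CPM in the control libraries and 137.1, 158.4 and 143.1 CPM in the *Myc*-deficient libraries. Every *Myc*-deficient value was below every control value, and the lowest control exceeded the highest *Myc*-deficient library. The mean went from 200.04 ± 26.0 to 146 ± 10.99 CPM (SD, n = 3), a log2 fold change of −0.45 (SE 0.15, 95% interval −0.77 to −0.12, edgeR adjusted p = 0.0982). The gene therefore did not pass. The shallow control had the highest value of all 6. Without the replicate 1 libraries the estimate was −0.30 (adjusted p = 0.321, edgeR), and without that control alone and with no replicate block it was −0.35 (adjusted p = 0.0764, edgeR).

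*Idh3b* (ENSMUSG00000027406.12, chromosome 2 from 130279309 to 130284547) had 142.8, 147.4 and 130.5 CPM in controls and 94.2, 132.7 and 118.0 CPM in *Myc*-deficient libraries, with overlap between the genotypes. Its log2 fold change was −0.30 (SE 0.15, edgeR adjusted p = 0.269), and without the replicate 1 libraries it was −0.15 (adjusted p = 0.651, edgeR). *Idh3g* (ENSMUSG00000002010.17, chromosome X from 73778963 to 73786897) was the steadiest member in controls, at 211.5, 219.0 and 213.8 CPM. In the *Myc*-deficient libraries it had 160.6, 206.9 and 181.5 CPM, all below the controls, with a log2 fold change of −0.24 (SE 0.13, edgeR adjusted p = 0.343). Each subunit was lower in all 3 pairs of equal number, and none of the 3 passed.

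*Idh2* encodes the NADP-dependent isocitrate dehydrogenase of the mitochondrion, which makes NADPH (ENSMUSG00000030541.16, chromosome 7 from 80094846 to 80115392). It had 77.0, 47.8 and 41.9 CPM in the control libraries and 48.3, 62.0 and 49.0 CPM in the *Myc*-deficient libraries. The highest value and the lowest both came from controls, and the coefficient of variation of 33.9% among controls was the widest of the 9 genes. The means were 55.6 ± 18.8 and 53.1 ± 7.73 CPM (SD, n = 3) and the log2 fold change was −0.016 (SE 0.20, 95% interval −0.47 to 0.43, edgeR adjusted p = 0.978). Its direction turned in several fits, to 0.30 without the replicate 1 libraries, 0.23 without the shallow control and with no replicate block, 0.0098 with at least 10 counts in every library and 0.015 on protein-coding transcripts alone.

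*Ogdh* encodes the first component of the 2-oxoglutarate dehydrogenase complex, which releases carbon dioxide and forms succinyl-CoA (ENSMUSG00000020456.17, chromosome 11 from 6291633 to 6356642). It was the one member with a higher mean in *Myc*-deficient cells, at 434.3, 423.5 and 373.8 CPM in controls and 408.7, 453.1 and 460.9 CPM in *Myc*-deficient libraries. The ranges overlapped, and the log2 fold change was 0.10 (SE 0.14, 95% interval −0.21 to 0.41, edgeR adjusted p = 0.731). Without the replicate 4 libraries it was −0.014. *Suclg1* encodes the subunit that both forms of succinyl-CoA synthetase share (ENSMUSG00000052738.14, chromosome 6 from 73248382 to 73276911). It had 156.0, 138.1 and 138.6 CPM in controls and 125.2, 147.9 and 104.8 CPM in *Myc*-deficient libraries, overlapping, with a log2 fold change of −0.21 (SE 0.15, edgeR adjusted p = 0.460). Without the replicate 2 libraries the estimate of *Suclg1* was −0.35, and without those of replicate 4 it was −0.13.

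*Fh1* encodes fumarate hydratase, which turns fumarate into malate (ENSMUSG00000026526.14, chromosome 1 from 175600374 to 175625635). Its CPM values were 87.6, 75.5 and 76.3 in the control libraries and 56.7, 58.9 and 51.9 in the *Myc*-deficient libraries. The genotypes stood well apart, with the lowest control above the highest *Myc*-deficient library. The mean went from 79.8 ± 6.73 to 55.8 ± 3.61 CPM (SD, n = 3). The log2 fold change of −0.51 (SE 0.14, 95% interval −0.82 to −0.21) had an adjusted p of 0.0491 in edgeR, past 0.05 but short of the 0.01 set. DESeq2 placed *Fh1* just inside the threshold (log2 fold change −0.52, adjusted p = 0.00996), where 3.47% of all genes passed downwards and 4.16% upwards, and over all settings tried the adjusted p ran from 0.00996 to 0.189.

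*Mdh2* encodes the mitochondrial malate dehydrogenase, which restores oxaloacetate and closes the cycle (ENSMUSG00000019179.10, chromosome 5 from 135778480 to 135790398). It had 357.9, 330.8 and 326.6 CPM in controls and 274.1, 286.7 and 274.5 CPM in *Myc*-deficient libraries. The groups did not overlap, and the *Myc*-deficient libraries were close to each other. The means were 338 ± 17.0 and 278 ± 7.17 CPM (SD, n = 3), and the log2 fold change was −0.28 (SE 0.13, 95% interval −0.57 to 0.011, edgeR adjusted p = 0.241).

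**Figure D1:**
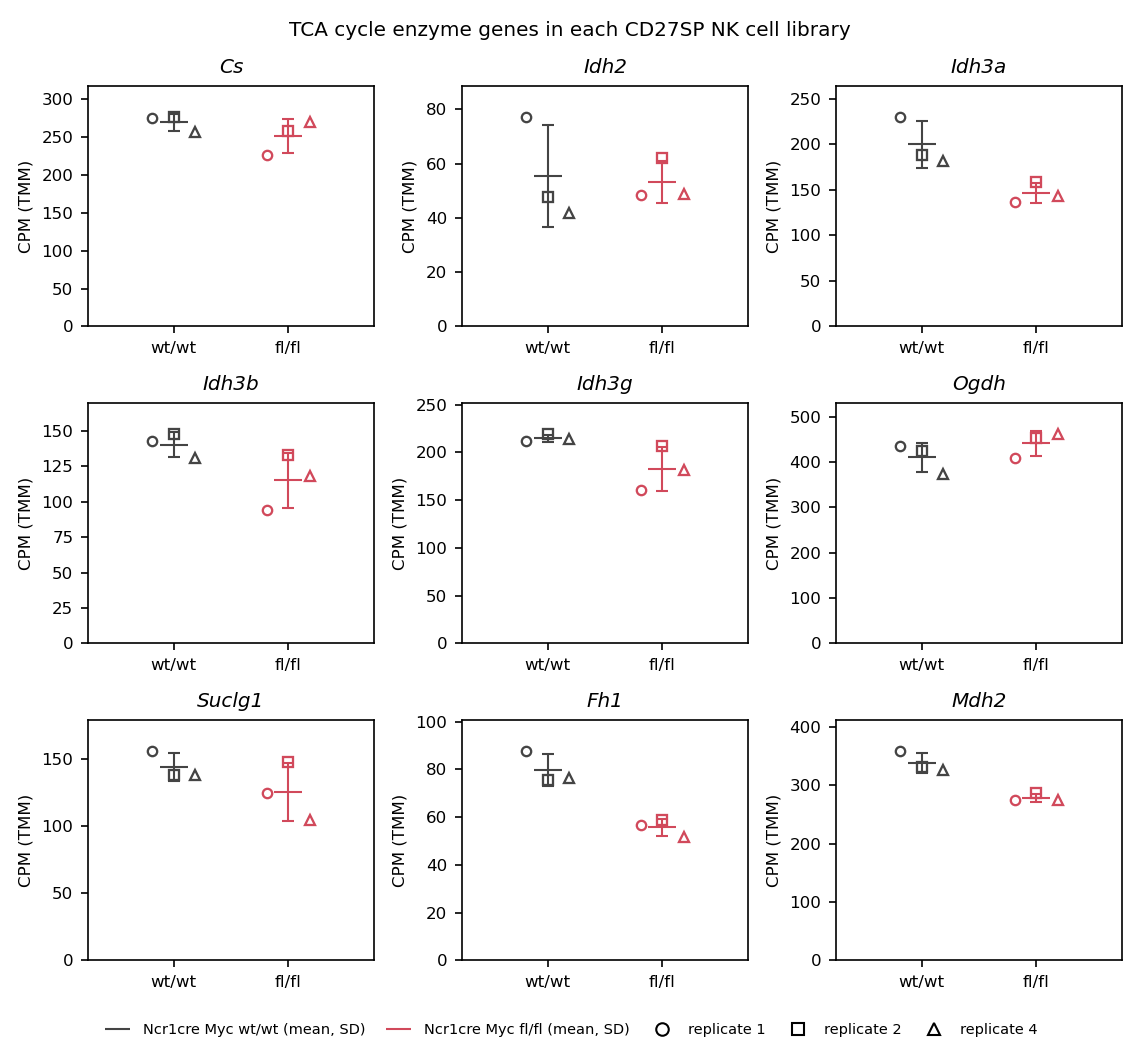
Normalized counts of the 9 TCA cycle enzyme genes in every library. Each panel plots CPM scaled by TMM for 1 gene, with a symbol for each replicate number and the mean and SD of the 3 libraries of a genotype. *Idh3a*, *Idh3g*, *Fh1* and *Mdh2* do not overlap between genotypes, and the spread of *Idh2* comes from the control with 77.0 CPM.

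Counted over the 9 genes, 4 had every *Myc*-deficient library below every control (*Idh3a*, *Idh3g*, *Fh1* and *Mdh2*) and none had the reverse. Over all tested genes, 15.1% were separated downwards and 16.2% upwards. An adjusted p below 0.05 in edgeR was reached by 1 member, *Fh1*, while 3.38% of all genes reached it downwards and 4.45% upwards. An unadjusted p below 0.05 in edgeR was found for 2 members, both lower, and for 10.2% of all genes downwards and 12.4% upwards. A log2 fold change below 0 was found for 8 of the 9 members and for 48.5% of all genes. The 9 genes were picked as a pathway and share these 6 libraries, so these counts describe them and are not a test of the list.

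The difference was uneven between the replicate numbers. The median log2 ratio of the 9 genes, *Myc*-deficient over control, was −0.40 between the libraries numbered 1, −0.094 between those numbered 2 and −0.24 between those numbered 4. For all genes it was 0.064, 0.0020 and −0.0057. The widest gap was thus the one that involves the shallow control, in which the members stood highest on average. Without the replicate 1 libraries the median log2 fold change of the members was −0.15, and without that control alone and with no replicate block it was −0.25.

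Levels of different genes were compared as TPM, which divides by transcript length. In controls *Mdh2* was the most abundant member at 443 ± 19.4 TPM (SD, n = 3), followed by *Idh3g* at 243 ± 21.3 and *Ogdh* at 164 ± 13.6 TPM. *Suclg1* (147 ± 8.97 TPM), *Idh3a* (145 ± 16.4 TPM), *Idh3b* (133 ± 15.3 TPM) and *Cs* (123 ± 8.32 TPM) came next, and the control ranges of neighbours from *Ogdh* down to *Cs* overlapped. *Fh1* at 108 ± 4.89 TPM and *Idh2* at 55.2 ± 23.0 TPM were the scarcest. *Mdh2* stood above *Idh3g*, *Idh3g* above *Ogdh*, *Cs* above *Fh1* and *Fh1* above *Idh2* in all 6 libraries on summed TPM. Much of the sum of *Fh1* came from ENSMUST00000176740, a transcript of 542 bases with 58.9, 73.9 and 60.2 TPM in controls. Its transcript of 10 exons, ENSMUST00000027810, had 30.5, 27.4 and 27.0 TPM in controls, below ENSMUST00000107384 of *Idh2* at 54.9, 42.3 and 35.8 TPM. The same held in *Myc*-deficient libraries, at 22.5, 22.6 and 19.3 against 45.5, 54.7 and 44.9 TPM. In *Idh3a*, the retained-intron transcript ENSMUST00000214136 held 89.5, 90.9 and 80.7 TPM in controls.

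The scale mattered for *Ogdh*. Its TPM values were 160.5, 179.0 and 152.5 in controls and 187.6, 193.6 and 200.3 in *Myc*-deficient libraries, without overlap, whereas its CPM values overlapped. On log2(TPM + 1) its difference was 0.24 (adjusted p = 0.292, limma), not past the threshold. *Cs* had the same mean TPM of 123 in both genotypes. Summed over the 9 genes, the controls held 1590, 1622 and 1470 TPM and the *Myc*-deficient libraries 1347, 1509 and 1412 TPM. The sums overlapped, with means of 1561 ± 80.1 and 1423 ± 81.6 TPM (SD, n = 3).

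**Figure D2:**
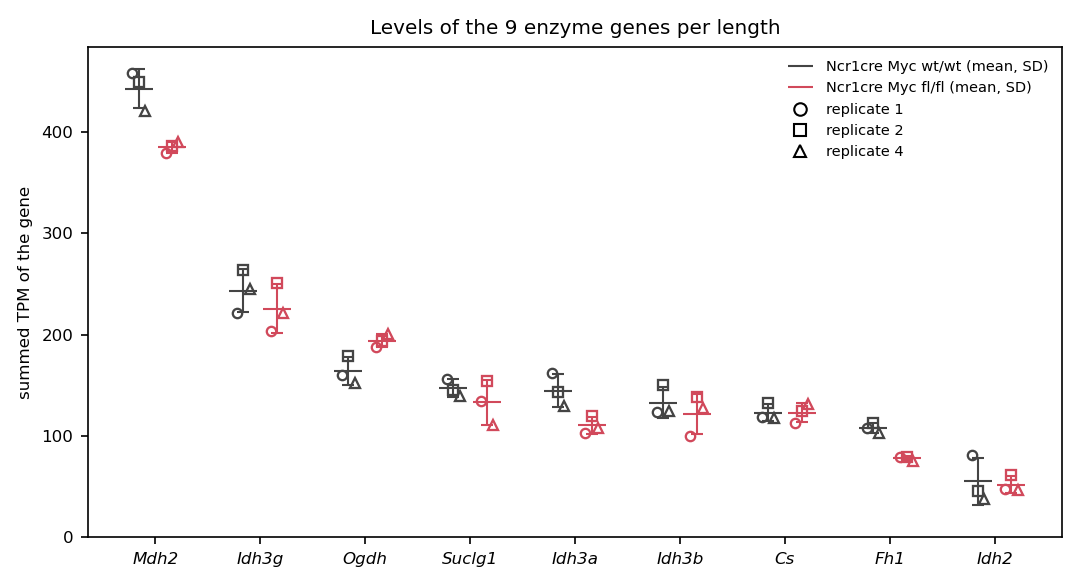
Levels of the 9 genes per transcript length, in order of their mean in controls. Symbols give the summed TPM of a gene in each library, with the mean and SD of the 3 libraries per genotype. *Mdh2* lies above all other members in every library and *Idh2* at the bottom, while *Suclg1*, *Idh3a*, *Idh3b* and *Cs* lie close together.

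The counts of most members came from protein-coding transcripts, with at least 86.3% in every library for all but *Idh3a* and *Mdh2*. *Idh3a* was the exception, with 35.8% to 47.7% of its counts on protein-coding transcripts. The retained-intron transcript ENSMUST00000214136, annotated with 8 exons on chromosome 9 from 54595094 to 54603936, held 46.3% to 53.1% of them in both genotypes. The coding remainder was divided unevenly between ENSMUST00000217484 and ENSMUST00000167866. The former held 4.99% of the gene's counts in the shallow control and 26.1% to 40.6% in the other libraries, and the latter 30.8% in that control and 7.11% to 17.4% elsewhere. On protein-coding transcripts alone the log2 fold change of *Idh3a* was −0.31 (adjusted p = 0.202, edgeR) and that of *Idh3b* −0.33, so their order turned.

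*Mdh2* showed a like exception in the same library. ENSMUST00000138101, annotated as a target of nonsense-mediated decay, held 30.1% of its counts in control replicate 1 and 12.3% to 16.5% in the others. Reads that several transcripts share are divided by the quantifier, so these splits are estimates. *Cs* was the only member with annotated near copies of at least 90% identity over at least 100 bases. The copy *Csl*, at 91.9% over 1522 bases, held no more than 0.0249% of the counts of *Cs*. The pseudogene *Gm48254* was not analysed here.

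The other 9 subunits of the cycle were examined by the same fit. None of them passed the threshold, 8 of 9 had a lower estimate and 7 of 9 were separated downwards without overlap, with a median log2 fold change of −0.23. Of all tested genes, 48.5% had a lower estimate and 15.1% were separated downwards. *Dlst* and *Dld*, the partners of *Ogdh* in its complex, had log2 fold changes of −0.19 and −0.22 (adjusted p = 0.448 and 0.382, edgeR). The 2-oxoglutarate dehydrogenase genes therefore had small estimates of either sign, none past the test.

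*Suclg2* and *Sucla2* encode the partners of *Suclg1*, the first for the GTP-forming and the second for the ATP-forming enzyme. *Suclg2* had 121.5, 92.3 and 88.8 CPM in controls and 54.3, 67.0 and 64.1 CPM in *Myc*-deficient libraries. Its log2 fold change was −0.69 (SE 0.17, edgeR adjusted p = 0.0358), the lowest of the 18 cycle genes, and without the replicate 1 libraries it was −0.47 (adjusted p = 0.139, edgeR). *Sucla2* had −0.37 (adjusted p = 0.194, edgeR). With no replicate block, leaving out the shallow control moved *Sucla2* from −0.39 to −0.22 and *Dld* from −0.23 to −0.13.

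Succinate dehydrogenase, which is also complex II of the respiratory chain, is built from *Sdha*, *Sdhb*, *Sdhc* and *Sdhd*. The flavin-binding subunit *Sdha* had a log2 fold change of −0.043 (adjusted p = 0.901, edgeR). Its lowest value, 372.7 CPM, was that of the shallow control, and with no replicate block the estimate was −0.050 with that control and −0.17 without it. The iron-sulphur subunit *Sdhb* had 265.8 ± 31.5 and 201 ± 11.2 CPM in controls and *Myc*-deficient libraries (SD, n = 3), a log2 fold change of −0.40 (adjusted p = 0.121, edgeR). The membrane anchors *Sdhc* and *Sdhd* had −0.23 and −0.37 (adjusted p = 0.366 and 0.144, edgeR). Over all 18 genes, 16 estimates were below 0, 11 genes were separated downwards and none upwards, and 2 (*Fh1* and *Suclg2*) had an adjusted p below 0.05 in edgeR. The shares over all tested genes were 48.5% below 0, 15.1% separated downwards and 16.2% upwards, and 3.38% lower at that adjusted p.

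**Figure D3:**
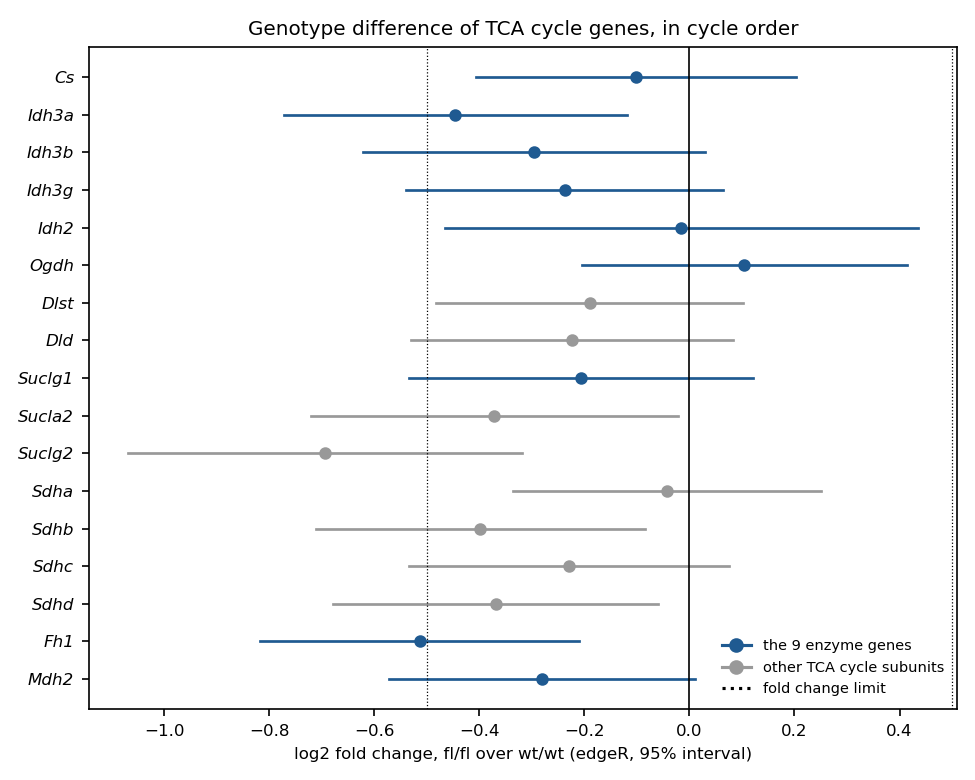
Differences between the genotypes for the genes of the cycle that are named in the text, from citrate synthase at the top to malate dehydrogenase at the bottom. Points are log2 fold changes of *Myc*-deficient over control cells, with their 95% intervals from edgeR, blue for the 9 enzyme genes and grey for the other subunits, and dotted lines mark 0.5 in either direction. *Ogdh* is the one point shown above 0, and *Suclg2* and *Fh1* are the lowest.

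Ratios within a library, taken on TPM, do not change with the scaling between libraries. They were used to ask whether subunits or paired enzymes moved unequally. They still rest on the split of counts between transcripts, which for *Idh3a* and *Mdh2* differed in the shallow control. For each of 6 ratios the genotypes were compared by a two-sided exact permutation test, where 3 libraries against 3 cannot go below p = 0.10. *Idh3a* over *Idh3g* went from 0.601 ± 0.114 to 0.491 ± 0.0157 (SD, n = 3), without overlap and at that smallest p in the exact permutation test, 0.20 after adjustment over the 6 ratios. *Idh3a* over *Idh3b* was 1.101 ± 0.188 and 0.916 ± 0.103, and *Idh3b* over *Idh3g* 0.546 ± 0.0329 and 0.539 ± 0.0438, both with overlap (adjusted exact permutation p = 0.30 and 0.70). The log2 difference of *Idh3a* over *Idh3g* was −0.28, and it was −0.15 without the replicate 1 libraries and −0.087 on protein-coding transcripts alone. That of *Idh3a* over *Idh3b* was −0.26, and −0.0061 on protein-coding transcripts alone.

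*Idh2* was also set against *Idh1*, the NADP-dependent isocitrate dehydrogenase of the cytosol. The ratio was 14.2, 7.79 and 8.38 in controls and 5.31, 6.88 and 5.88 in *Myc*-deficient libraries. The groups did not overlap, and the exact permutation p was the smallest possible, 0.10, or 0.20 after adjustment. The log2 difference of the ratio was −0.70, and −0.34 without the replicate 1 libraries. *Mdh2* over *Mdh1*, the cytosolic malate dehydrogenase, was 0.810 ± 0.128 and 0.722 ± 0.0384 (SD, n = 3), with overlap (adjusted exact permutation p = 0.60).

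*Suclg2* over *Sucla2* was 1.18, 0.568 and 0.524 in controls and 0.375, 0.422 and 0.477 in *Myc*-deficient libraries. All controls were above all *Myc*-deficient libraries, with an adjusted exact permutation p of 0.20. The log2 difference was −0.74 on TPM, −0.32 on CPM and −0.28 without the replicate 1 libraries, so its size changed with the libraries and the scale used.

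**Figure D4:**
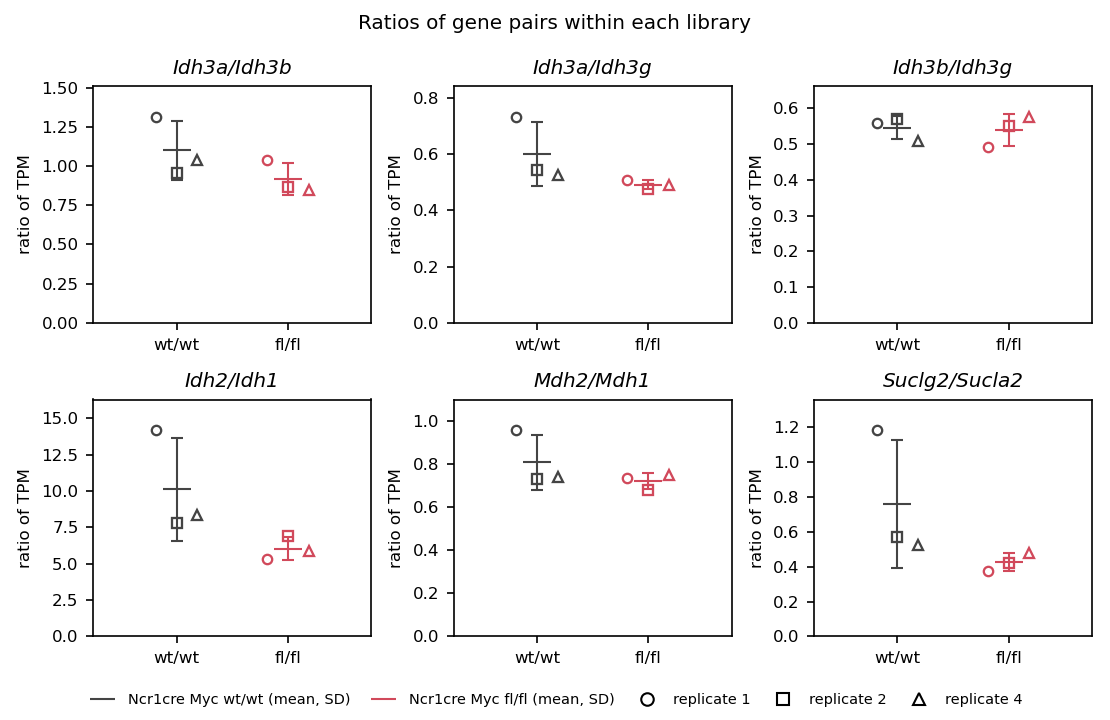
Ratios of gene pairs within each library. Each panel plots the ratio of summed TPM for a symbol per replicate, with the mean and SD of the 3 libraries per genotype. *Idh3a/Idh3g*, *Idh2/Idh1* and *Suclg2/Sucla2* do not overlap between the genotypes, and in each of the 3 the control of replicate 1 is far above the other controls.

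Reactions that feed or drain the cycle were described through 5 further lists, which with the other subunits hold 47 genes, 45 of them tested. *Pdk4* and *Me1* had too few counts. Past the threshold were 2 genes, both lower and both from the 13 genes of the list of refilling reactions and carriers. *Got2*, the mitochondrial aspartate aminotransferase that exchanges oxaloacetate for aspartate, fell. It had 135.5, 157.4 and 154.7 CPM in controls and 82.9, 58.9 and 92.1 CPM in *Myc*-deficient libraries, with a log2 fold change of −0.96 (SE 0.17, edgeR adjusted p = 0.00991). The *Myc*-deficient mean was 52.3% of the control mean, and the groups did not overlap.

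*Me3*, a mitochondrial malic enzyme that turns malate into pyruvate with NADP, fell as well. It had 25.6, 42.4 and 17.1 CPM in controls and 3.40, 6.13 and 6.93 CPM in *Myc*-deficient libraries. All *Myc*-deficient values were below the lowest control, although the controls varied widely, and the log2 fold change was −2.33 (SE 0.31, edgeR adjusted p = 0.00411). With all 6 libraries, neither gene passed with effective length offsets, with library size only, on protein-coding transcripts alone or on log2(TPM + 1), and *Me3* but not *Got2* passed in limma-trend and with at least 10 counts in every library. With fewer libraries calls were lost as well. Without the replicate 1 libraries *Got2* had −1.08 and *Me3* −2.05 (adjusted p = 0.0237 and 0.0216, edgeR), and without those of replicate 2 they had −0.72 and −2.08 (adjusted p = 0.040 and 0.0140, edgeR). Without those of replicate 4 *Got2* had −1.09 (adjusted p = 0.0103, edgeR), while *Me3* passed at −2.87. Without the shallow control and with no replicate block they had −1.01 and −2.45 (adjusted p = 0.0165 and 0.0142, edgeR). *Me2*, the NAD-dependent mitochondrial malic enzyme, had the highest mean TPM of that list over all 6 libraries, though not over the *Myc*-deficient ones. It had a log2 fold change of −0.64 (adjusted p = 0.0291, edgeR) and did not pass.

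The remaining lists had no gene past the threshold. Among the genes of pyruvate entry, 7 of 12 tested had a lower estimate, with a median log2 fold change of −0.10. *Pdk1*, the kinase that switches off pyruvate dehydrogenase, was farthest from 0 there at −0.61 (adjusted p = 0.0599, edgeR), and *Mpc1*, a subunit of the mitochondrial pyruvate carrier, was the most abundant at −0.14 (adjusted p = 0.641, edgeR). Of the 4 assembly factors of succinate dehydrogenase, 3 had a lower estimate. *Sdhaf3* stood farthest at −0.68 (adjusted p = 0.204, edgeR) and *Sdhaf4*, the most abundant, at −0.087 (adjusted p = 0.848, edgeR).

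The 3 genes that attach lipoic acid, the cofactor of the 2-oxoglutarate and pyruvate dehydrogenase complexes, all had estimates below 0. *Lipt2* had −0.37 (adjusted p = 0.554, edgeR) and *Lias*, the lipoic acid synthase, −0.0064 (adjusted p = 0.988, edgeR). Among the cytosolic counterparts, *Idh1* was the gene with the largest difference and had 7.67, 10.2 and 8.43 CPM in controls and 15.1, 15.8 and 13.7 CPM in *Myc*-deficient libraries. The groups did not overlap, and the log2 fold change of 0.76 (SE 0.21) had an adjusted p of 0.0523 in edgeR. The abundant *Mdh1* had −0.26 (adjusted p = 0.311, edgeR).

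The RNA of several marker genes of other cell types differed between the genotypes. The 9 NK cell markers summed to between 10825 and 11495 CPM in controls and 12596 and 13045 CPM in *Myc*-deficient libraries. None of the 9 passed the threshold, and their estimates had either sign, with a median log2 fold change of 0.037. In every library their sum was above that of each other marker list given here. The 8 basophil and mast cell markers all rose, from 14.3 to 18.9 CPM in sum in controls to between 121 and 336 CPM, and the 5 markers of granulocyte-monocyte progenitors all rose, from between 78.4 and 127 to between 524 and 872 CPM. Of the 5 erythroid markers 2 rose (25.0 to 145 CPM in sum in controls, 280 to 595 CPM in *Myc*-deficient libraries), and of the 5 monocyte markers 3 rose (1668 to 1825 and 2045 to 2366 CPM). No marker of neutrophils (3.46 to 15.9 and 12.5 to 29.4 CPM), B cells (592 to 1427 and 570 to 759 CPM) or T cells (216 to 478 and 241 to 315 CPM) passed. Of the 4 mature NK cell markers, 1 fell (*S1pr5*), and their sums were 121 to 183 and 125 to 136 CPM. No marker was at 0 in all libraries of a genotype. Whether this marker RNA came from other cells or from the sorted NK cells was not tested. Any part of other cells in the levels of the cycle genes was not tested either.

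The genes most like the members in profile were sought among 8741 genes with a mean of at least 10 CPM. The measure was the root mean square difference between a gene's mean-centred log2 CPM and the members' mean profile over the 6 libraries. Among the 5 nearest were *Prpf31* (0.0217), *Ecd* (0.0241), *Zfp322a* (0.0249) and *Rnf138* (0.0323). The distances of the members from their own mean profile ran from 0.0655 for *Mdh2* to 0.227 for *Idh2*, with *Ogdh* at 0.177 and *Fh1* at 0.161. The 5 genes were picked as the nearest of 8741, so their smaller distances do not measure how alike the members are.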

How the data were processed

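The authors deposited a table for each of the 6 libraries, with 100583 mouse transcripts and their estimated counts, TPM and effective lengths. The estimated counts as deposited are not normalized, and the deposited TPM values are scaled by transcript length and by library total. The methods name Salmon and GRCh38, whereas the identifiers are those of mouse and the columns those of kallisto. Libraries were made from poly-A RNA with SMART-Seq v4 and read from a single end.

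Estimated counts were summed by symbol through GENCODE M21 (GRCm38; 100239 transcripts matched, the rest holding 0.129% to 0.169% of counts) and rounded. After filterByExpr and TMM scaling, genotypes were compared in edgeR (4.0.16, R 4.3.3) by the quasi-likelihood test, blocked on the replicate number and with Benjamini-Hochberg adjustment. DESeq2 (1.42.0) and limma-trend (3.58.1) were alternatives. TPM was summed by gene for levels and ratios. Start regions came from RefSeq on GRCm38.p6, and near copies from BLAST (2.17.0). The script was tested on simulated data. Libraries within a genotype differed beyond counting noise (chi-square per degree of freedom 36.5 to 91.9). The members, the lists of pathway genes and markers and the tests were chosen with earlier results of these data known. Named by rule are the cycle genes, *Myc*, from every further pathway list the genes past the threshold, the one with the largest log2 fold change and the one with the highest mean TPM, and the 5 genes nearest in profile, of which some are not reported here. *S1pr5* was named after its value was seen.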

Additional observations from a re-analysis of the deposited data

How the results depend on the processing

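With 3 libraries per genotype, 1 of them shallow, modest differences are hard to call, and the 95% interval of *Fh1* alone spans −0.82 to −0.21. Across the alternatives, 125 values of counts, medians and ratios stayed the same, 38 moved and 1 reversed. Counts had to stay within 1.5 times, medians within the SD of the member medians between replicate numbers, and ratios in direction. Of the values of single members, 137 kept their direction and side of the threshold, 5 reversed and 2 became stronger. Some could not change, since the limit of 0.05 and the largest adjusted p of 3 tests kept the main fold changes, and a permutation within pairs of equal number kept the main ratios. The member median stayed below 0 throughout. Members past the threshold numbered 0 except for 1 (lower) with DESeq2 and 1 with an adjusted p below 0.05, *Fh1* both times (−0.52 and −0.51). The reversed estimates were *Idh2* at 0.23 without the shallow control, replicate 1, and with no replicate block (chosen after seeing the data), 0.30 without replicate 1, 0.0098 with at least 10 counts in every library and 0.015 on protein-coding transcripts, *Ogdh* at −0.014 without replicate 4 (leaving out each number in turn, −0.014 to 0.20), and the *Idh3b/Idh3g* ratio at 0.064 without replicate 1 (−0.12 to 0.064). The causes were not tested.

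Over all genes, 135 passed downwards and 198 upwards. These counts became 537 and 643 in DESeq2, 523 and 689 with an adjusted p below 0.05, 378 and 524 without a filter, 51 and 85 on protein-coding transcripts, 25 and 49 with library size only, 8 and 24 with effective length offsets, and 0 and 0 on log2(TPM + 1) in limma, where 1108 and 2195 had an unadjusted p below 0.05. Downwards they were 78 in limma-trend and 78 by the largest adjusted p of 3 tests. Upwards they were 113 without the shallow control and with no replicate block, against 203 with no replicate block and all libraries. Leaving out 1 replicate number at a time gave 10 to 114 downwards and 49 to 162 upwards. The 2 further pathway genes past the threshold became 4 in DESeq2 (and 1 upwards), 4 with an adjusted p below 0.05, 4 without a filter, 1 in limma-trend, 1 by the largest of 3 tests, 1 with at least 10 counts, 0 to 1 with a replicate number left out, and 0 without the shallow control and with no replicate block, with effective length offsets, with library size only, on protein-coding transcripts and on log2(TPM + 1).

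The study analysed these libraries as paired, and the replicate number was the block for that reason. The data did not show that pairing by number, since the correlations of their deviations from the genotype means were −0.012, −0.020 and 0.050 for numbers 1, 2 and 4. With no replicate block the members past the threshold were again 0, with a median log2 fold change of −0.23, while *Fh1* had an edgeR adjusted p of 0.0279 and *Idh3a* of 0.0535.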
